A study of Homo sapiens with 3 samples.

Results

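The mitochondrial enzymes of fatty acid oxidation and a secreted regulator of triglyceride breakdown were followed in HepG2 cells given antagonists of the P2X7 receptor. The genes were fixed by name: CPT1A, CPT2, ACADVL, ACADM, HADHA, HADHB, ACAA2 and ANGPTL4, the last of them the secreted regulator and the other 7 enzyme genes. All 8 were matched by symbol among the 62680 gene rows of the deposited table. HepG2 is a human line derived from a hepatocellular carcinoma and was labelled as wild type in every sample. The groups were cells given 20 µM A740003 for 48 h, cells given 20 µM A438079 for 48 h, and cells given PBS for 48 h, the control. The labels describe both compounds as specific P2X7 antagonists, and P2X7 is an ATP-gated ion channel of the plasma membrane. All cells grew in DMEM with fetal bovine serum and antibiotics. The labels name no solvent for either compound, and an effect of a solvent and of a compound cannot be told apart here. The study compared the transcriptomes of the 3 treatments.

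There was 1 RNA-seq library per treatment. Differences therefore lack a replicate check and a p-value, and the intervals given cover counting error only. Deposited expected counts summed to between 19375462 and 19735540 per library. All 9 hepatocyte markers listed were compared, with ALB, the main secreted liver protein, at 95722 counts under A740003, 120012 under A438079 and 125391 under PBS. TTR, a carrier of thyroid hormone, was called higher under A740003 at 1.65 times PBS, FGB, a fibrinogen chain, lower in A740003 over A438079 at 0.665 times (not past the size for a call without the trend across genes in GC content and length), and the rest were not called; APOB stood at 1.39 and 1.32 times PBS and AFP at 0.713 and 0.923 times. Of the 10 markers of other cell types 9 were matched. PTPRC, CD163, MARCO, COL1A1, COL3A1, VWF and KRT7 had 0 counts in all 3 libraries, while ACTA2 and KRT19 were compared and not called, at 0.931 and 0.801 times PBS under A740003 and 1.05 and 0.910 times under A438079. P2RX7, the gene of the channel, had 2 counts in each library.

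Long-chain fatty acids enter mitochondria bound to carnitine and are then shortened in repeated rounds of dehydrogenation, hydration, a second dehydrogenation and thiolytic cleavage. In the liver the acetyl-CoA released feeds the citric acid cycle or is made into ketone bodies during fasting. The nuclear receptor PPARα drives many of these genes in hepatocytes, and malonyl-CoA, the building block of fatty acid synthesis, blocks entry at CPT1A. ANGPTL4 is not an enzyme of oxidation: it is a secreted protein that inhibits lipoprotein lipase and a known PPAR target. None of the 8 genes encodes an enzyme of ketone body synthesis, which is described further below from a separate list.

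The 7 enzyme genes stood close to the PBS level with both antagonists. In bulk RNA, fewer cells expressing a gene and less of it per cell cannot be told apart. Ratios of scaled counts over PBS ran between 0.783 and 1.11 under A740003 and between 0.850 and 1.06 under A438079. A gene was called higher when its ratio was at least 1.5, or lower at the inverse or less, with a 95% counting interval that excluded 1. Under A740003, 0 of the 7 genes compared were called higher, against 3.14% of the 12270 genes compared, and 0 were called lower, against 10.7%. Under A438079, 0 of 7 were called higher and 0 lower, against 1.63% and 9.44% of all genes. ANGPTL4, averaging 0.337 CPM (counts scaled to library size), was read too little to be compared with the rest. Calls were rare among genes averaging 100 CPM or more, where 5 of the 7 enzyme genes lie. Of the 1921 genes at that level, 2 were called higher and 10 lower under A740003, and 3 and 5 under A438079.

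**Figure D1:**
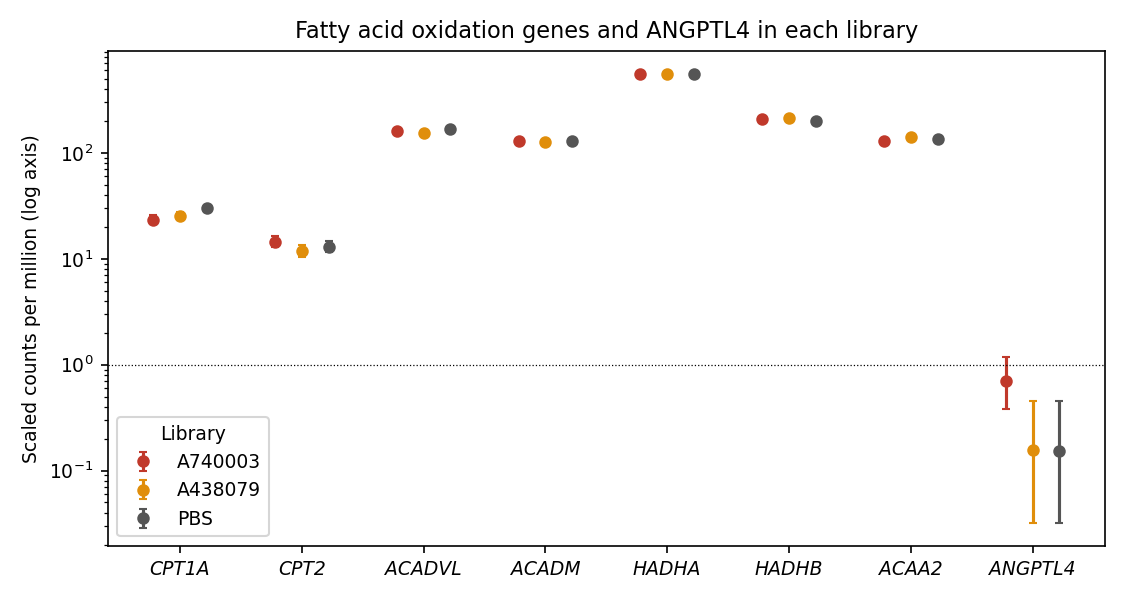
Scaled CPM of each gene (log axis) under A740003, A438079 and PBS, 1 library each, with exact Poisson 95% intervals. The 7 enzyme genes lie at nearly the same height in the 3 libraries, and ANGPTL4 lies below the dotted line at 1 CPM with the highest point in the A740003 library.

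The pathway opens with entry into the mitochondrion. CPT1A makes the carnitine esters at the outer membrane and is the regulated step of the pathway. It lies on chromosome 11 from 68754620 to 68844410, minus strand (GENCODE release 29, GRCh38). CPT1A had 467 counts under A740003, 494 under A438079 and 582 under PBS. Both antagonist libraries were below PBS, by a margin beyond counting error. The ratio over PBS was 0.783 (95% counting interval 0.691 to 0.886) under A740003 and 0.850 (0.753 to 0.960) under A438079, so neither reached the size for a call. Between the antagonists the ratio was 0.920 (0.809 to 1.05), an interval that includes 1.

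The deposited values of CPT1A per length placed A438079 closer to PBS. They were 5.67, 6.49 and 6.58 FPKM (fragments scaled for length and depth) under A740003, A438079 and PBS, so that A438079 stood nearly at PBS. The effective length implied by counts over FPKM was 4173, 3882 and 4565 bases in those libraries. A change in that length moves counts and FPKM apart, and the authors' estimate of transcript shares behind it was not tested.

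CPT2 (chromosome 1, 53196429 to 53214197, plus strand) removes the carnitine at the inner membrane. It had 289 counts under A740003, 229 under A438079 and 253 under PBS. A740003 was above PBS and A438079 below it, each within counting error, at 1.11 times (0.938 to 1.32) and 0.907 times (0.755 to 1.09). The antagonists differed from each other by more than counting error, and A740003 stood at 1.23 times A438079 (1.03 to 1.47).

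The first dehydrogenation follows. ACADVL (chromosome 17, 7217125 to 7225273, plus strand) acts on very long chains and is bound to the inner membrane. Its counts were 3181, 2978 and 3254 under A740003, A438079 and PBS. The A438079 library was the lowest, at 0.917 times PBS (0.872 to 0.964), and A740003 stood at 0.953 times (0.908 to 1.002). ACADVL has the highest transcript GC content of the 7, at 58.6%. With the trend of all genes with GC content and length removed, its log2 ratios were 0.06 under A740003 and 0.02 under A438079, instead of -0.07 and -0.13.

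ACADM (chromosome 1, 75724347 to 75787575, plus strand), the dehydrogenase of medium chains, had 2560 counts under A740003, 2457 under A438079 and 2519 under PBS. These values are the same within counting error. The ratios over PBS were 0.991 (0.938 to 1.05) under A740003 and 0.977 (0.924 to 1.03) under A438079. With the GC and length trend removed, the log2 ratios were -0.04 and -0.12, instead of -0.01 and -0.03. The A438079 value then lay outside its counting interval. By FPKM with a pseudocount of 0.1, A740003 over A438079 was 0.12 on the log2 scale, instead of 0.02.

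The later steps on long chains fall to one complex. HADHA (chromosome 2, 26190635 to 26244726, minus strand) and HADHB (chromosome 2, 26243170 to 26290468, plus strand) encode the subunits of the mitochondrial trifunctional protein. HADHA carries the hydratase and the hydroxyacyl-CoA dehydrogenase, and HADHB the thiolase. The genes lie head to head. Their RefSeq start sites on GRCh38.p14 are 307 bases apart, and the windows of 250 bases before to 50 after each start share 194 bases (chr2:26244689-26244882). The windows are shown because the stretch they share lies between both start sites. It is in capitals and written once on each strand.
HADHA, minus strand, chr2:26244583-26244882: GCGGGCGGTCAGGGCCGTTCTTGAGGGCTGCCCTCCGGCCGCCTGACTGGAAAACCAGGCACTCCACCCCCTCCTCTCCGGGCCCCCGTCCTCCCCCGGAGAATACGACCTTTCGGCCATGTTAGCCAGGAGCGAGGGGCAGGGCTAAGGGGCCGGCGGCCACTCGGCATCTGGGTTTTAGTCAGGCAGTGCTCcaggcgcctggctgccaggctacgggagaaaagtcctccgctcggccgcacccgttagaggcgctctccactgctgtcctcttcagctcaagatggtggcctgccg
HADHB, plus strand, chr2:26244689-26244988: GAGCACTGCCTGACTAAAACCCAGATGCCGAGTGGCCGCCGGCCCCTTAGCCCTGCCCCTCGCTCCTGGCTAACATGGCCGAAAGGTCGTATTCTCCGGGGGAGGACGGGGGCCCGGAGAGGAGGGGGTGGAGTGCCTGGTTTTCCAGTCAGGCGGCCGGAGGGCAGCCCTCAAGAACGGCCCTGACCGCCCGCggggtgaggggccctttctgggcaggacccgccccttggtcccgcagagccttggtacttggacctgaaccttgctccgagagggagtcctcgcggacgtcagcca

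HADHA was the most counted of the 8 genes, with 11038 counts under A740003, 10739 under A438079 and 10682 under PBS. The ratio over PBS was 1.01 with both antagonists (0.981 to 1.04 under A740003, 0.981 to 1.03 under A438079), the narrowest intervals of the set. HADHB had 4179, 4158 and 3918 counts under A740003, A438079 and PBS. Both antagonist libraries were slightly above PBS, at 1.04 times (0.996 to 1.09) under A740003 and 1.06 times (1.02 to 1.11) under A438079, and for A438079 the interval excluded 1. The GENCODE spans of HADHA and HADHB overlap on opposite strands at their starts. No source used here says whether strand was used in counting, so reads from the overlap cannot be assigned with certainty.

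Per length, HADHA stood above HADHB in every library, at 220, 215 and 223 FPKM against 125, 126 and 120 FPKM under A740003, A438079 and PBS. The ratio of HADHA to HADHB was 1.76 under A740003 (counting interval 1.69 to 1.82), 1.71 under A438079 (1.65 to 1.78) and 1.86 under PBS (1.80 to 1.93). By FPKM the interval of A438079 lies below that of PBS, and that of A740003 overlaps it. With counts divided by the merged exon length of each gene in place of FPKM, the ratios were 2.58, 2.52 and 2.66. Their size therefore depends on the length used. No intervals were computed for these ratios, so the separation of A438079 from PBS is shown by FPKM only.

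ACAA2 (chromosome 18, 49782167 to 49813960, minus strand) encodes a mitochondrial thiolase of shorter chains. It had 2552 counts under A740003, 2750 under A438079 and 2632 under PBS. A740003 was the lowest library and A438079 the highest. Over PBS the ratios were 0.946 (0.895 to 0.999) and 1.05 (0.992 to 1.10), and A740003 over A438079 was 0.903 (0.856 to 0.954).

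**Figure D2:**
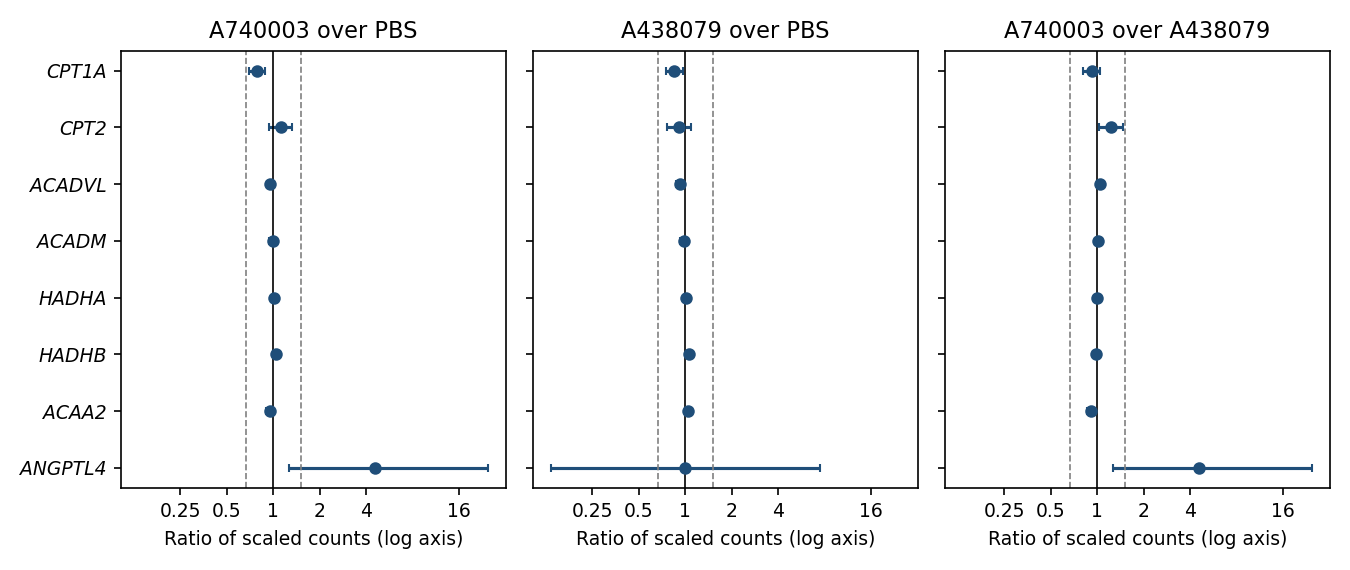
Ratio of scaled counts (log axis) with 95% counting intervals for each gene in the 3 comparisons, where dashed lines mark a ratio of 1.5 and its inverse. The enzyme genes lie between the dashed lines in each panel, and the intervals of ANGPTL4 reach beyond them.

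ANGPTL4 (chromosome 19, 8363289 to 8374373, plus strand) had 14 counts under A740003, 3 under A438079 and 3 under PBS. The A740003 library held more reads than the others, which held equal numbers. In scaled CPM these were 0.703 (exact Poisson 95% interval 0.384 to 1.18), 0.155 (0.0319 to 0.452) and 0.154 (0.0319 to 0.451). The ratio of A740003 over PBS was 4.55, with a counting interval from 1.27 to 24.7. That of A438079 over PBS was 1.002, with an interval from 0.134 to 7.48. A740003 over A438079 gave 4.54 (1.27 to 24.7). The gene was under the level at which calls were made. The deposited values were 0.50, 0.17 and 0.13 FPKM.

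The ANGPTL4 start region is shown because it was the only one of the 8 in the orientation of transcription with a TATAAA, in capitals, which starts 29 bases before the RefSeq start.
ANGPTL4, plus strand, chr19:8363905-8364204: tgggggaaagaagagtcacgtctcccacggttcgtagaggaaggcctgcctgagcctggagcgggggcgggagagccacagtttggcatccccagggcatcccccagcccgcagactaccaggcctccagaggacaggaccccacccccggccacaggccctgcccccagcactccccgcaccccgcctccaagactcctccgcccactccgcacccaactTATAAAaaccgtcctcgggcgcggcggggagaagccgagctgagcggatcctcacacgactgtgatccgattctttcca

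The 8 genes have 9 such windows in RefSeq, as ACADVL has a pair. On both strands TATAAA was found in 2 of the 9 windows (ANGPTL4 and 1 of ACADVL), against 11.5% of 35116 windows of all genes. The letters GGGCGG were found in 6 of 9, against 45.0% of all windows, and were not found in the windows of CPT1A, ACAA2 and 1 of ACADVL. AGGTCA, the half-site bound by nuclear receptors, was in 0 of 9, against 13.8%. A direct repeat of it with 1 base of any kind (N) between the copies, the form bound by PPAR and RXR, was in 0 of 9, against 0.0228%. Only exact letters were counted, and 8 of the 35116 windows held this repeat, so its 0 of 9 says nothing about these genes. These windows hold only the bases next to the start, and known PPAR elements can lie elsewhere.

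By level per length, HADHA was highest, at 215 to 223 FPKM, followed by HADHB at 120 to 126 FPKM. ACAA2 (100 to 112 FPKM) and ACADVL (88.3 to 104 FPKM) overlapped in range, with ACAA2 the higher of the pair in each library but nearly equal to ACADVL under A740003, at 100.35 against 100.05 FPKM. ACADM stood below them at 67.6 to 73.4 FPKM. CPT1A (5.67 to 6.58 FPKM) and CPT2 (4.81 to 6.09 FPKM), the pair of carnitine acyltransferases, overlapped each other, far below the enzymes of the spiral. ANGPTL4 was lowest, at 0.13 to 0.50 FPKM.

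Summed over the 8 genes, counts were 24280, 23808 and 23843 under A740003, A438079 and PBS, or 0.123%, 0.121% and 0.123% of all counts. HADHA was the largest part of the sum. The sum stood at 0.993 times PBS under A740003 (0.976 to 1.01) and at 1.0004 times under A438079 (0.983 to 1.02).

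Single genes differed little in size, but some differences went beyond counting error. Under A740003, 2 of the 7 enzyme genes had an interval that excluded 1 (CPT1A and ACAA2), against 52.8% of all genes compared. Under A438079, 3 of 7 did (CPT1A, ACADVL and HADHB), against 46.1%. The median log2 ratio of the 7 was -0.01 under A740003 and -0.03 under A438079, and over all genes compared it was 0.0010 and -0.0036. The median size of the log2 ratio, sign set aside, was 0.07 under A740003 and 0.09 under A438079 in the 7 genes, against 0.22 and 0.18 over all genes compared. Since low counts scatter more, genes of high level are a closer setting. Among the 5 enzyme genes averaging 100 CPM or more that median was 0.06 under A740003 and 0.07 under A438079, against 0.15 and 0.11 in the 1921 genes at that level. Of these 5 genes, 1 had an interval that excluded 1 under A740003 and 2 under A438079. Of the 1921 genes, 1481 and 1318 did.

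**Figure D3:**
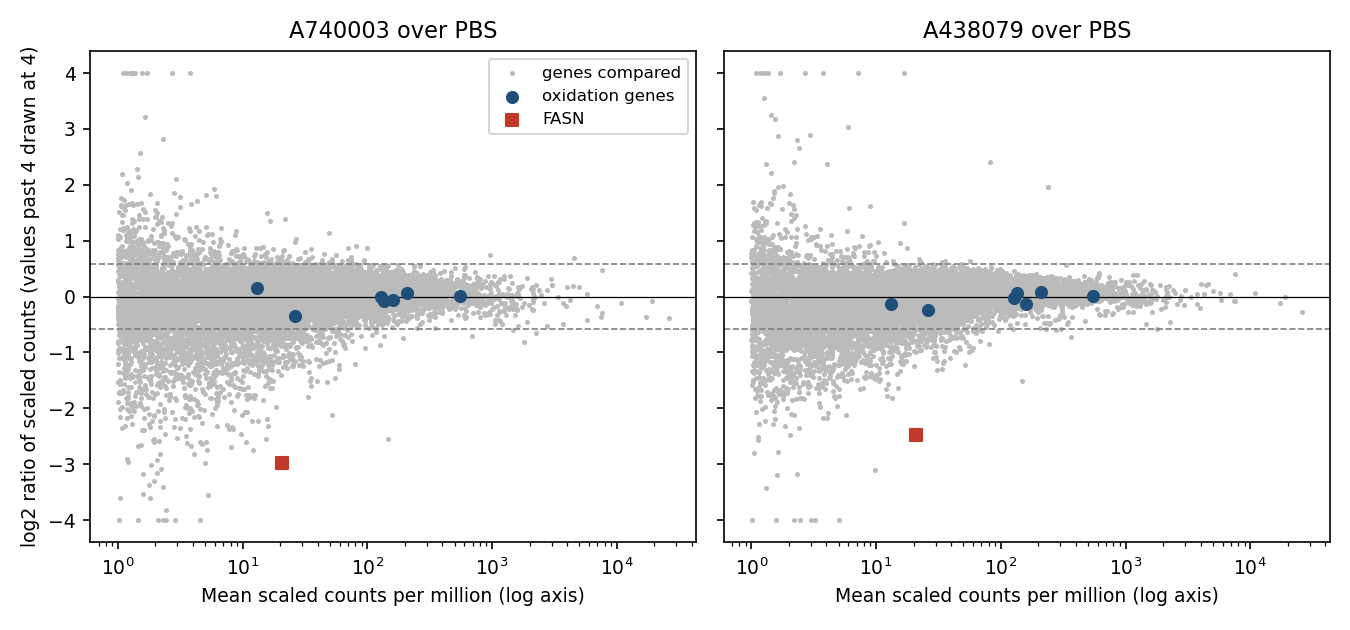
Log2 ratio of scaled counts over PBS against mean scaled CPM (log axis) for the 12270 genes compared (grey), the 7 enzyme genes (blue circles) and FASN (red square), for A740003 on the left and A438079 on the right. The enzyme genes lie between the dashed lines at a ratio of 1.5 and its inverse, with log2 ratios from -0.35 to 0.16 for A740003, and FASN lies at -2.98 and -2.49.

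Both antagonists were given at the same concentration for the same time, and values of these genes lay close between them. Of the 7 enzyme genes, 0 were called higher and 0 lower in A740003 over A438079, against 2.44% and 2.81% of all genes compared. The ratios ran between 0.903 for ACAA2 and 1.23 for CPT2, and those were the 2 genes whose interval excluded 1, against 32.9% of all genes. Of the 1921 genes averaging 100 CPM or more, 2 were called higher and 5 lower, and 1151 had an interval that excluded 1. Among the 5 enzyme genes at that level, 1 had such an interval. The interval of HADHA was 0.974 to 1.03, of ACADM 0.959 to 1.07, of ACADVL 0.989 to 1.09 and of HADHB 0.937 to 1.02. Both comparisons over PBS share the PBS library, so agreement between them is no independent repeat.

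The rest of the mitochondrial pathway was described from a list. Of 25 further genes of carnitine transport, activation and beta-oxidation, 23 were compared. None was called higher with either antagonist, against 3.14% of all genes compared under A740003 and 1.63% under A438079. Called lower were 1 under A740003 and 2 under A438079, against 10.7% and 9.44%. The medians of the log2 ratio were 0.01 and -0.0042. CPT1B, the muscle form of the outer-membrane transferase, stood at 0.578 times PBS under A740003 (0.401 to 0.827) on 51 against 86 counts. Under A438079 it stood at 0.431 times (0.285 to 0.641) on 37 counts. Its counts are not whole and the locus has a readthrough with CHKB. CPT1B had 3.61, 2.39 and 2.99 FPKM under A740003, A438079 and PBS, so that by FPKM the direction under A740003 turned, to above PBS, and neither difference was past 1.5-fold. CRAT, which makes acetylcarnitine, stood at 0.771 times under A740003 and was called lower under A438079 at 0.629 times (0.514 to 0.769), but its log2 ratio there was -0.19 after removal of the trend with GC and length, in place of -0.67.

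Among genes of that list that were not called, ACOT2, a mitochondrial thioesterase, stood at 0.782 and 0.695 times PBS under A740003 and A438079. ECI1, an isomerase for unsaturated chains, stood at 0.831 and 0.798 times. DECR1, a reductase for unsaturated chains, stood at 1.13 and 1.24 times, above PBS with both.

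Ketone body genes were read unevenly. OXCT1, which starts ketone body use and is known to be absent from hepatocytes, had 3, 1 and 3 counts under A740003, A438079 and PBS. Of the 10 genes of this list, 6 were compared, and none was called in either direction with either antagonist. Over all genes compared, 3.14% were called higher and 10.7% lower under A740003, and 1.63% and 9.44% under A438079. The median log2 ratio of the 6 was 0.14 under A740003 and 0.20 under A438079.

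BDH1, which reduces acetoacetate to hydroxybutyrate, had 345 counts under A740003, 371 under A438079 and 463 under PBS. It stood below PBS with both, at 0.727 times (0.630 to 0.837) under A740003 and 0.803 times (0.698 to 0.922) under A438079. Its log2 ratios were -0.27 and -0.15 without the GC and length trend, in place of -0.46 and -0.32. SLC16A1, a carrier of lactate and ketone bodies, stood at 1.26 and 1.18 times PBS, and SLC16A6, a related carrier, at 1.08 and 1.19 times. Without the GC and length trend, SLC16A1 had log2 ratios of 0.18 and 0.12, in place of 0.33 and 0.24. SLC16A6 had -0.02 and 0.12, in place of 0.11 and 0.25. By FPKM, SLC16A6 stood below PBS under A740003, at 5.21 against 6.20.

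In the peroxisome, where very long and branched chains are shortened, 17 of the 18 listed genes were matched and 16 were compared. The medians were 0.06 under A740003 and 0.05 under A438079. With each antagonist 0 were called higher, against 3.14% of all genes compared under A740003 and 1.63% under A438079. Called lower was 1 with each, against 10.7% and 9.44%. DECR2, a peroxisomal reductase, was called higher in A740003 over A438079, with 234 against 139 counts, at 1.64 times (1.32 to 2.04), and stood at 1.44 and 0.881 times PBS. ACOX2, an oxidase of branched chains and bile acid precursors, stood at log2 ratios of 0.30 and 0.32 over PBS. Its deposited values were 25.58, 26.76 and 25.76 FPKM under A740003, A438079 and PBS. By FPKM, ACOX2 therefore stood near PBS with both, and slightly below it under A740003. ACOX3, a related oxidase, stood at 0.832 and 1.03 times PBS, and the thioesterase gene ACOT8 at 0.958 and 0.785 times.

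**Figure D4:**
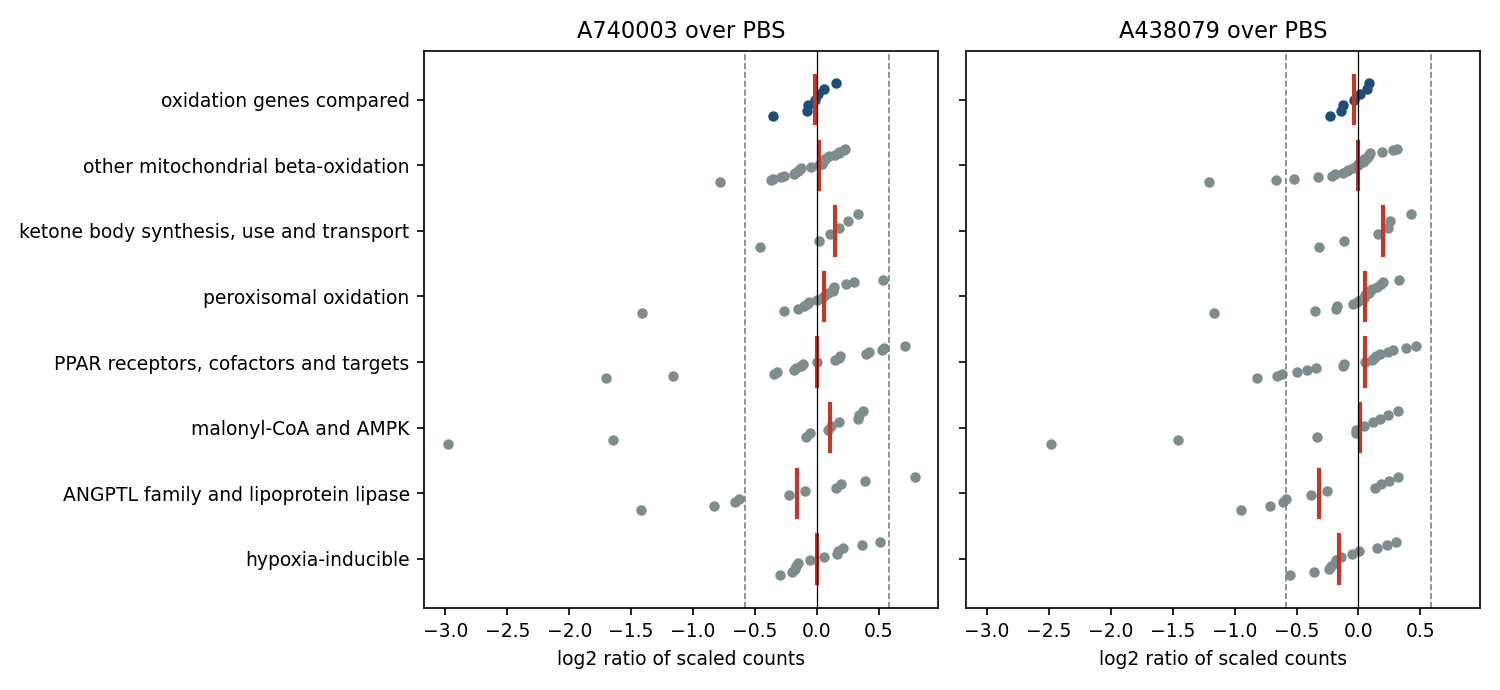
Log2 ratio of scaled counts over PBS for the 7 enzyme genes compared (blue) and for the compared members of 7 related gene lists (grey), for A740003 on the left and A438079 on the right, with list medians in red. The enzyme genes span -0.35 to 0.16 under A740003 and -0.23 to 0.09 under A438079, while FASN and STK11 stand far to the left in the malonyl-CoA and AMPK row.

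PPAR receptors, their cofactors and targets were listed because they regulate the pathway. Of 21 genes 17 were compared. None was called higher with either antagonist, against 3.14% of all genes compared under A740003 and 1.63% under A438079. Called lower were 2 under A740003 and 3 under A438079, against 10.7% and 9.44%. The medians of the log2 ratio were -0.0013 and 0.05. RXRA, the partner that PPARs need to bind DNA, had 61 counts under A740003, 127 under A438079 and 195 under PBS. It was called lower under A740003 at 0.305 times PBS (0.225 to 0.409) and under A438079 at 0.653 times (0.518 to 0.820). Without the GC and length trend the A438079 value was -0.38 on the log2 scale in place of -0.61, under the size for a call. RXRA was lower under A740003 than under A438079, at 0.468 times (0.339 to 0.639).

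PPARA, the receptor of fasting in liver, was not called, on 492 counts under A740003, 371 under A438079 and 358 under PBS. It stood at 1.34 times PBS (1.17 to 1.54) under A740003 and 1.04 times (0.896 to 1.20) under A438079. PPARA had 7.23, 4.09 and 5.58 FPKM under A740003, A438079 and PBS, so by FPKM A438079 stood below PBS. CREB3L3, a hepatic factor that works with PPARA, was called lower under A438079 at 0.565 times (0.459 to 0.694), or -0.57 in place of -0.82 on the log2 scale without that trend, and stood at 0.924 times under A740003. PPARGC1A, a coactivator, stood at 1.44 and 1.30 times, and the corepressor gene NCOR1 at 1.46 and 1.38 times. Without the trend their log2 ratios were 0.34 and 0.22 for PPARGC1A, in place of 0.52 and 0.38. For NCOR1 they were 0.38 and 0.33, in place of 0.54 and 0.46. NCOR1 had 23.81, 18.66 and 17 FPKM under A740003, A438079 and PBS, so by FPKM A438079 stood closer to PBS.

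The other calls in that list rest on few reads. VNN1, a PPAR target, was called lower under A740003 on 18 against 40 counts. CIDEC, a lipid droplet protein, was called lower under A438079 on 39 against 62 counts. PLIN2, the abundant droplet coat and a PPAR target, stood at 0.999 times PBS (0.971 to 1.03) under A740003 and 0.924 times (0.898 to 0.951) under A438079. Other PPAR targets were at or near 0 in the 3 libraries: FGF21, CYP4A11 and G0S2 had 0 counts throughout, and PDK4 had 2, 1 and 0.

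Genes that set malonyl-CoA stood apart from the oxidation genes in one place. FASN, which consumes malonyl-CoA in fatty acid synthesis, had 120 counts under A740003, 165 under A438079 and 928 under PBS. It fell to 0.126 times PBS (0.103 to 0.153) under A740003 and to 0.178 times (0.150 to 0.210) under A438079, and its log2 ratios without the GC and length trend were -1.60 and -1.49. ACACA, which makes malonyl-CoA, was not called, at 1.26 times (1.20 to 1.32) and 0.985 times (0.936 to 1.04). STK11, the kinase that activates AMPK, had 115, 128 and 352 counts and fell to 0.319 times (0.256 to 0.394) and 0.364 times (0.295 to 0.447), and its log2 ratios became -0.69 and -0.67, in place of -1.65 and -1.45, without the trend.

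In this list of 12 genes 10 were compared, and FASN and STK11 were the 2 called lower with each antagonist. Over all genes compared, 10.7% were called lower under A740003 and 9.44% under A438079. None of the 10 was called higher, against 3.14% and 1.63%. The list medians were 0.10 under A740003 and 0.01 under A438079. The catalytic AMPK genes PRKAA2 and PRKAA1 were not called and stood above PBS with both. PRKAA2 had log2 ratios of 0.37 and 0.32, and PRKAA1 of 0.34 and 0.24. Without the GC and length trend these became 0.15 and 0.13 for PRKAA2 and 0.17 and 0.07 for PRKAA1.

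Around ANGPTL4, 10 of 17 genes of its family and of lipoprotein lipase were compared. LPL itself had 0 counts in all 3 libraries. ANGPTL8, which takes part in inhibiting that lipase, had 426 counts under A740003, 263 under A438079 and 240 under PBS. It was higher under A740003 at 1.73 times PBS (1.47 to 2.04) and stood at 1.10 times (0.918 to 1.31) under A438079. Directly, A740003 over A438079 was 1.58 (1.35 to 1.85), or 0.54 in place of 0.66 on the log2 scale without the GC and length trend, under the size for a call. ANGPTL8 was the 1 gene of the list called higher under A740003, and none was under A438079, against 3.14% and 1.63% of all genes compared.

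Of the 10 genes, 4 were called lower with each antagonist, against 10.7% of all genes compared under A740003 and 9.44% under A438079, and the list medians were -0.16 under A740003 and -0.32 under A438079. APOA5, an activator of the lipase, was called lower at 0.646 times PBS (0.562 to 0.743) under A740003 and 0.666 times (0.579 to 0.765) under A438079, and neither was past the size for a call once the GC and length trend was taken out. FURIN, a protease that cleaves ANGPTL proteins, stood at 0.370 and 0.652 times, at log2 ratios of -0.48 and 0.04 once the trend was taken out. LIPC, the hepatic lipase, was called lower under A740003 at 0.632 times (0.520 to 0.767), and LIPG, the endothelial lipase, under A438079 at 0.512 times on 23 against 45 counts. SEL1L, needed for lipase maturation, was not called, at log2 ratios of 0.39 and 0.32, or 0.17 and 0.15 once the trend was taken out.

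Genes induced by low oxygen were listed because ANGPTL4 is one of them. Of 12, all were compared and none was called over PBS in either direction, with medians of 0.00096 for A740003 and -0.16 for A438079. The shares over all genes compared were 3.14% higher and 10.7% lower under A740003, and 1.63% and 9.44% under A438079. CA9, a hypoxia marker, had 162 counts under A740003, 97 under A438079 and 111 under PBS and was called higher in A740003 over A438079 at 1.63 times (1.26 to 2.11). Over PBS it stood at 1.42 times (1.11 to 1.83) under A740003 and 0.876 times under A438079. ANKRD37 stood at 0.961 and 0.682 times, KDM3A at 1.28 and 1.23 times, and EGLN3 at 0.812 and 0.780 times. Without the GC and length trend, KDM3A had log2 ratios of 0.23 and 0.19, in place of 0.36 and 0.30. EGLN3 had 3.32, 4.37 and 3.23 FPKM under A740003, A438079 and PBS, so by FPKM both antagonist libraries stood above PBS.

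In A740003 over A438079, where 2.44% of all genes compared were called higher and 2.81% lower, 2 of the 17 PPAR genes compared were called higher and 2 lower. Of the 10 genes compared around ANGPTL4, 2 were called higher and 1 lower. In the peroxisomal list 1 of 16 was called higher and in the hypoxia list 1 of 12, with none lower, and 0 were called in the other mitochondrial, ketone body and malonyl-CoA lists.

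Transcript GC content moved with the lower calls across the table. Genes called lower had a median GC content of 59.3% under A740003 and 59.6% under A438079, against 47.8% over the genes compared that have a value. The 7 enzyme genes ran between 41.0% and 58.6%, with a median of 49.6%. The part of GC content in the ratios was not tested beyond removing the trend, after which the medians of the 7 were 0.01 under A740003 and -0.0028 under A438079.

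For likeness of pattern, genes of at least 20 CPM were ranked by distance from a gene's pair of log2 ratios over PBS. For ANGPTL4 (2.02 and 0.0023) the nearest of 6399 genes were UGT1A3, UGT1A1, POLR2L, COX8A and MIF, 0.91 to 1.18 away. The ANGPTL4 ratios rest on 14, 3 and 3 counts, and their counting intervals are wider than these distances. The UGT1A genes share exons, so the split of reads between them is uncertain. For CPT1A (-0.35 and -0.23), 188 genes came within 0.1, the nearest being RFX5, MAPKAPK3, LIN7A, C1orf131 and TRIM27. With 3 libraries such likeness is a description only.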

How the data were processed

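Total RNA of HepG2 cells was extracted with an RNeasy kit and sequenced from SMARTer mRNA libraries, per the labels' protocols, with 1 library per treatment. The authors deposited expected counts per gene, estimates that need not be whole (33.3% to 35.1% of values above 0 were not, at a tolerance of 0.005), and FPKM values, scaled by the authors for length and library size. Value columns were matched to samples by the letter in each label. GRCm38 is the build listed in the submitters' processing notes; it is a mouse genome, and the gene identifiers are human. No source used here names the aligner, counter, annotation or use of strand. The 116 rows of unannotated genes held 0.0775% to 0.0853% of counts and stayed in the totals.

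Expected counts were rounded and scaled with TMM (edgeR 4.0.16, R 4.3.3, factors of 0.989 to 1.01). The genes compared averaged 1 CPM or more, which is about 19.4 to 19.7 counts. Ratios have exact conditional binomial (Clopper-Pearson) 95% intervals, log2 ratios a pseudocount of 0.5 counts, and the limit of a count of 0 is 3 counts. PCR duplicates are not removed by these intervals, which cover counting error only. GC content and length came from the longest coding transcript per gene (GENCODE release 29, 97.0% of genes compared). As trend, each gene was given the median ratio of its 201 closest genes by rank of GC and length. Positions are from GENCODE 29 on GRCh38 by gene identifier, and start regions from RefSeq GRCh38.p14, where all 8 genes matched.

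The 8 genes and the 9 lists were chosen with earlier results of these data known. Named genes were the 8, up to 4 of each list, those of 5 CPM or more whose log2 ratios over PBS were largest in size, and the 5 genes nearest in pattern to ANGPTL4. Markers could be named as well. P2RX7, CPT1B, PPARA, VNN1, CIDEC, PLIN2, ACACA, FURIN, LIPG, genes at or near 0 and the neighbours of CPT1A were named after their values were seen. Listed genes without a matched row are not analysed here, and single values of some listed genes are not reported here. The steps were tested on simulated counts. As alternatives, scaling used total counts, size factors of DESeq2 1.42.0 or upper quartiles; the others were changed filters, ratios and intervals, FPKM, the GC and length trend and protein-coding genes by GENCODE type, and, added after the data were seen, counts that were not rounded.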

Additional observations from a re-analysis of the deposited data

How the results depend on the processing

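No paired analysis was possible because each treatment had 1 library, and for the same reason no library could be left out. Over 13 alternatives the count of the 8 genes called over PBS or between antagonists was 0 except in these cases. Without a filter on low counts, ANGPTL4 entered and 1 gene was called higher in A740003 over PBS and 1 in A740003 over A438079. With the smaller called ratio tried, CPT1A was called and 1 gene was lower in A740003 over PBS. The median log2 ratio of the genes compared ran from -0.06 to 0.01 for A740003 over PBS, from -0.07 to -0.0028 for A438079 over PBS and from -0.0034 to 0.03 for A740003 over A438079. With counts per merged exon length the HADHA to HADHB ratio was 2.58 under A740003, 2.52 under A438079 and 2.66 under PBS. Of 91 values of single enzyme genes per comparison, 89, 82 and 87 stayed within the counting interval in A740003 over PBS, A438079 over PBS and A740003 over A438079. Alternatives that changed only a filter, the called ratio or the interval leave these log2 ratios as they were. That part of the 91 values could not move and says nothing about stability. For A438079 over PBS with FPKM and a pseudocount of 0.1, CPT1A moved to -0.02, ACADVL to -0.24 and HADHA to -0.05 on the log2 scale. The cause was not tested. ANGPTL4 in A740003 over PBS was 1.38 with FPKM and a pseudocount of 0.1 and 0.41 with a pseudocount of 1. Over all genes, those called lower numbered 666 to 2059 under A740003 and 459 to 1842 under A438079, against 1313 and 1158. Those called higher numbered 141 to 1366 and 57 to 738, against 385 and 200. Depth limits ANGPTL4 and PDK4.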

Other observations

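The effective length implied by the deposited counts and FPKM differed between libraries for a few of these genes, on the scale of log2 ratios over PBS. It was -0.13 under A740003 and -0.23 under A438079 for CPT1A, and 0.0014 and 0.10 for ACADVL. For HADHB it was -0.00084 and 0.00031. Over 10766 genes with at least 1 FPKM in each library the median was 0.02 under A740003 and 0.02 under A438079, and the range from the 5th to the 95th percentile was -0.29 to 0.33 and -0.28 to 0.32, so CPT1A and ACADVL lay inside it.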
